A study of Rattus norvegicus with 2 samples.

Results

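This account covers 9 interferon-stimulated genes of the rat lung: *Ddx60*, *Mx1*, *Mx2*, *Oas1a*, *Ifit2*, *Ifit3*, *Isg15*, *Irf7* and *Irf1*. They were read from every probe set whose platform annotation gave exactly 1 gene symbol and that symbol was one of the 9. This gave 11 probe sets of the 31042 on the array that were not controls, with 2 probe sets each for *Mx2* and *Ifit2* and 1 for each of the other 7 genes. The genes were chosen by name with their measured values already in view, and *Ddx60* for its difference between the arrays, so what follows describes that difference and tests nothing on it. Lung RNA was measured on 2 Affymetrix Rat Genome 230 2.0 arrays, 1 by experimenter 2 and 1 by experimenter 1. The experimenters are numbered here by the serial number that ends each sample title. The series asks how reproducible expression values are. The labels give no strain, sex, age or treatment for either array, and do not say whether both experimenters worked on one animal's tissue or one RNA extract. With 1 array per experimenter there was no replicate error, no p-value could be computed, and the number of arrays limits the precision.

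Cells that sense viral nucleic acid secrete type I and type III interferons, and interferons act on neighbouring cells through paired surface receptors. Type I and type III interferons activate the kinases JAK1 and TYK2, and their signal reaches promoters at the interferon-stimulated response element (ISRE), where a complex that contains IRF9 binds. The signal of interferon gamma reaches a different element, the gamma-activated site (GAS). In the lung these genes are best known for their induction in epithelium and macrophages during respiratory virus infection, and many are also transcribed at a basal level in uninfected tissue.

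The sequences below are shown because *Ddx60* and 3 of the other genes share the ISRE letters while their differences between the arrays were unlike. *Ddx60*, *Ifit3* and *Irf7* were higher for experimenter 2, with differences of 1.08, 0.20 and 0.13. Only *Oas1a* was lower, with a difference of -0.37. Promoter windows from RefSeq (assembly GRCr8), from 250 bases before to 50 after the gene start that its sequence table uses, were at hand for 6 of the 9 genes. The start used lay inside the outermost end of the gene's annotated span by 520 bases for *Irf7*, 93 for *Mx1*, 43 for *Oas1a* and 4 for *Ddx60*, and at that end for *Ifit3* and *Irf1*. The *Irf7* window therefore lies wholly within that gene's span, and all positions count from the start used. *Mx2*, *Ifit2* and *Isg15* had none in the table used. The ISRE core was searched as GAAANNGAAA and the GAS as TTCNNNGAA, on both strands, with overlapping matches kept; the GAS reads the same on either strand. An ISRE core was matched in 4 of the 6 windows, those of *Ddx60*, *Oas1a*, *Ifit3* and *Irf7*, against 3.92% of all 33469 promoter windows of the same length. A GAS was matched in 2 of the 6, those of *Oas1a* and *Irf1*, against 8.87% of all windows. Each line gives the gene strand, 5′ to 3′, from 40 bases before the first match to 40 after the last, with the ISRE core in capitals, or for *Irf1* the GAS.
*Ddx60*, chr16:33208829-33208952, minus strand: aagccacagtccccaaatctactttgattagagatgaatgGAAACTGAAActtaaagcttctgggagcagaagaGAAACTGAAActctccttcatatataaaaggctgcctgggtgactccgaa
*Oas1a*, chr12:41330385-41330480, plus strand: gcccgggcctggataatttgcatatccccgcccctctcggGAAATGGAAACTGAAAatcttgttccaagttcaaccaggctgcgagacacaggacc
*Ifit3*, chr1:241527242-241527331, plus strand: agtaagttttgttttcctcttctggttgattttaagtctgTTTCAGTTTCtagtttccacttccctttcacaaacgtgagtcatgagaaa
*Irf7*, chr1:205800043-205800132, minus strand: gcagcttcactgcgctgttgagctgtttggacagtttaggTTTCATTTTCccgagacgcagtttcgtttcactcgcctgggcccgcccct
*Irf1*, chr10:38417753-38417841, plus strand: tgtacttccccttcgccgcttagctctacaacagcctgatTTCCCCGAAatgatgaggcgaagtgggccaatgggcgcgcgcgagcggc

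In *Ddx60* the ISRE letters stood at bases -73 to -64 and -39 to -30 from the start used, both on the gene's strand. *Oas1a* held overlapping matches at -41 to -32 and -35 to -26, which appear above as 1 block of capitals, and a GAS at -199 to -191 outside the printed stretch. The match lay on the opposite strand in *Ifit3*, at -44 to -35, and in *Irf7*, at -69 to -60. *Irf1* held its GAS at -142 to -134, and the window of *Mx1* matched neither set of letters. A match describes the letters of a window and is no evidence of binding in these samples.

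**Figure D1:**
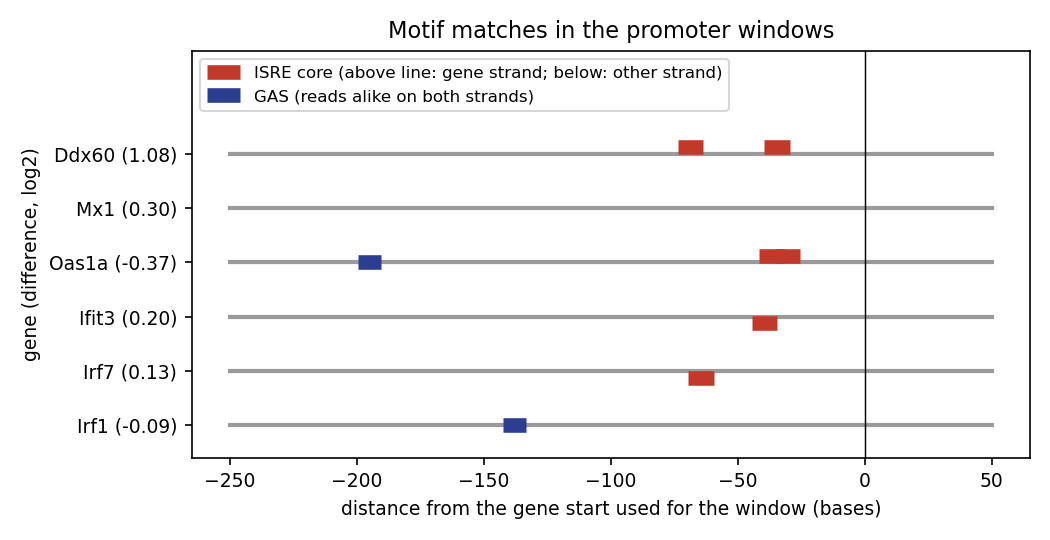
Motif matches in the 6 promoter windows. The horizontal axis is the distance in bases from the gene start used for the window, red blocks are ISRE core matches, blue blocks are GAS matches, and the difference of each gene (experimenter 2 minus experimenter 1, log2) stands beside its name. The genes with a red block had differences of 1.08, -0.37, 0.20 and 0.13.

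*Ddx60* was higher on the array of experimenter 2. It encodes a DExD/H-box helicase that is known from human and mouse cells as an interferon-induced protein linked to RIG-I-like receptor signalling. Its only probe set, 1381556_at, had a log2 RMA value of 9.35 for experimenter 2 and 8.28 for experimenter 1. The difference was 1.08 on the log2 scale, or 2.11-fold. The level lay at percentile 88.4 of the array of experimenter 2 and at percentile 75.6 of the array of experimenter 1, so the gene was in the upper part of the range on both. The difference itself lay at percentile 99.8 of all 31042 probe sets, among which 53, *Ddx60* included, differed by as much or more in that direction. Of the 1000 probe sets nearest to it in mean level, which had means from 8.67 to 8.96, it was the 1 with the highest difference. The central 95% of those neighbours lay between -0.48 and 0.53. In RNA from a whole tissue, fewer cells of a type and less RNA per cell cannot be told apart.

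The antiviral effectors among the other genes fell on both sides of 0. *Mx1* and *Mx2* encode dynamin-like GTPases that block the replication of RNA viruses. *Mx1* measured 6.64 for experimenter 2 and 6.33 for experimenter 1, a difference of 0.30, which was the next highest value after *Ddx60* and lay at percentile 90.7 of all differences. *Mx2* measured 7.22 for experimenter 2 and 7.07 for experimenter 1 by 1387283_at, a difference of 0.15 at percentile 78.8. The second *Mx2* probe set, 1369202_at, measured 2.80 for experimenter 2 and 3.07 for experimenter 1, a difference of -0.28. These last levels lay at percentiles 2.44 and 4.89 of the arrays, and the deposited table gives no detection call for them. The sign for *Mx2* therefore depended on the probe set.

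*Oas1a*, an oligoadenylate synthetase whose product activates RNase L, was the lowest of the 9 genes in difference. It measured 8.36 for experimenter 2 and 8.73 for experimenter 1, a difference of -0.37 at percentile 9.97. Rats have several closely related *Oas1* genes, and how far this probe set separates them was not tested. *Isg15*, a ubiquitin-like protein that is joined to other proteins after interferon, measured 8.82 for experimenter 2 and 8.98 for experimenter 1, a difference of -0.16 at percentile 31.7. Both genes thus lay on the opposite side of 0 from *Ddx60*.

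*Ifit2* and *Ifit3* encode tetratricopeptide repeat proteins, of which human IFIT2 binds RNA and human IFIT3 joins complexes with IFIT1. By 1384180_at, *Ifit2* measured 9.52 for experimenter 2 and 9.27 for experimenter 1, a difference of 0.25 at percentile 87.8. By 1379568_at it measured 8.05 for experimenter 2 and 8.22 for experimenter 1, a difference of -0.17 at percentile 30.8. Both probe sets lay above the median of each array, and why their signs differed was not tested. Of all genes with several probe sets, 55.3% had probe sets in both directions. *Ifit3* measured 6.95 for experimenter 2 and 6.75 for experimenter 1, a difference of 0.20 at percentile 84.2.

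The transcription factors also fell on both sides of 0. *Irf7*, a factor that switches on type I interferon genes and is itself interferon-induced, measured 8.79 for experimenter 2 and 8.67 for experimenter 1, a difference of 0.13 at percentile 76.6. *Irf1*, a factor induced by interferon gamma, measured 9.63 for experimenter 2 and 9.72 for experimenter 1, a difference of -0.091 at percentile 43.3. The percentiles given for *Irf7* and *Irf1* rank their differences. By level, on the arrays of experimenter 2 and then experimenter 1, *Irf7* lay at percentiles 82.5 and 80.7. *Irf1* lay at 90.6 and 91.0, *Oas1a* at 77.4 and 81.5, and *Isg15* at 82.9 and 84.4. *Mx1* lay at 54.5 and 50.2, *Ifit3* at 58.6 and 55.4, and *Mx2* by 1387283_at at 62.1 and 59.6. *Ifit2* lay at 89.7 and 87.2 by 1384180_at, and at 73.2 and 74.9 by 1379568_at. Levels are not compared between genes, since probe sets hybridise with unequal strength.

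**Figure D2:**
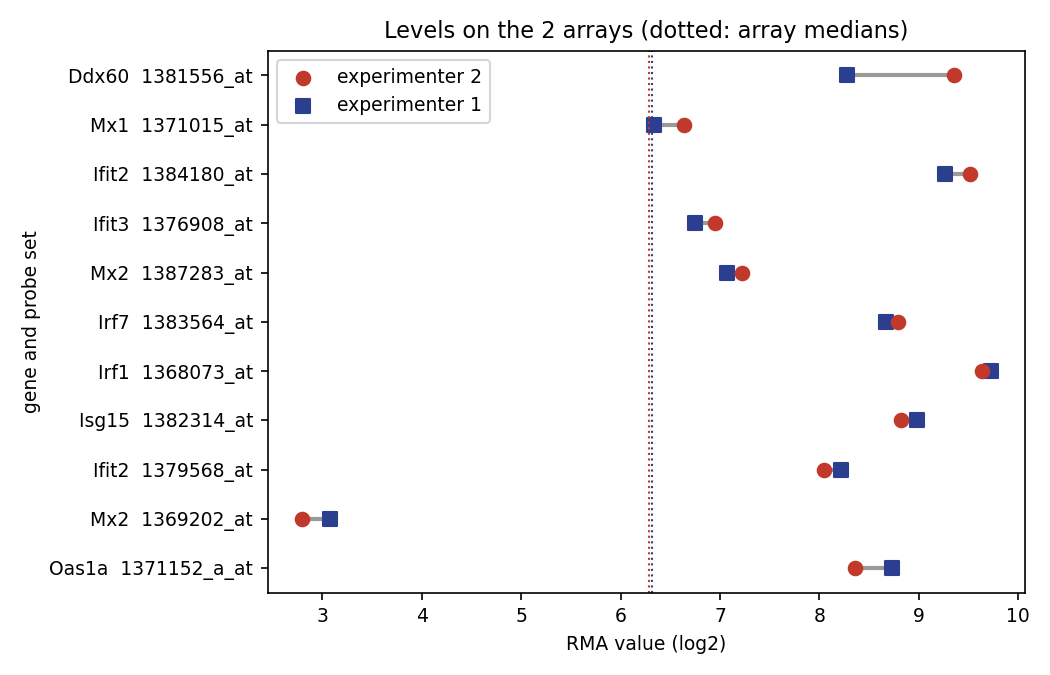
Log2 RMA values of the 11 probe sets, with red circles for experimenter 2, blue squares for experimenter 1 and dotted lines at the array medians of 6.28 and 6.32. Rows are ordered by difference. *Ddx60* at the top has the widest gap, 9.35 against 8.28, and all probe sets but the dim one of *Mx2* lie at or above both medians.

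The difference of *Ddx60* was not shared in size by the other genes. Of the 11 probe sets, 1 was at least 2-fold higher for experimenter 2, where 0.261% of all probe sets were, and 0 were at least 2-fold lower, where 0.11% were. At 1.5-fold the counts were again 1 higher, against 2.05% of all probe sets, and 0 lower, against 2.3%. *Ddx60* was that 1 probe set, and since it was chosen for this contrast the count supports nothing about the list. The 10 other probe sets spanned -0.37 to 0.30 and centred on a median of 0.018, with an SD of 0.24 among them. Over all 31042 probe sets the median was -0.052 and the SD 0.28. Each of the 10 lay inside the central 95% of the 1000 probe sets nearest to it in level.

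Nor did the other genes share one direction. Of the 10 other probe sets, 5 were higher for experimenter 2 and 5 lower, while 41.0% of all probe sets were higher. Counted by gene, *Mx1*, *Ifit3* and *Irf7* were higher by every probe set they had, *Oas1a*, *Isg15* and *Irf1* were lower, and *Mx2* and *Ifit2* had 1 probe set in each direction. The gap between *Ddx60* and the others ranged from 0.77, to *Mx1*, to 1.45, to *Oas1a*. The *Ddx60* difference was 3.56 times that of *Mx1* on the log2 scale. *Ddx60* had no second probe set with which its value could be compared.

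**Figure D3:**
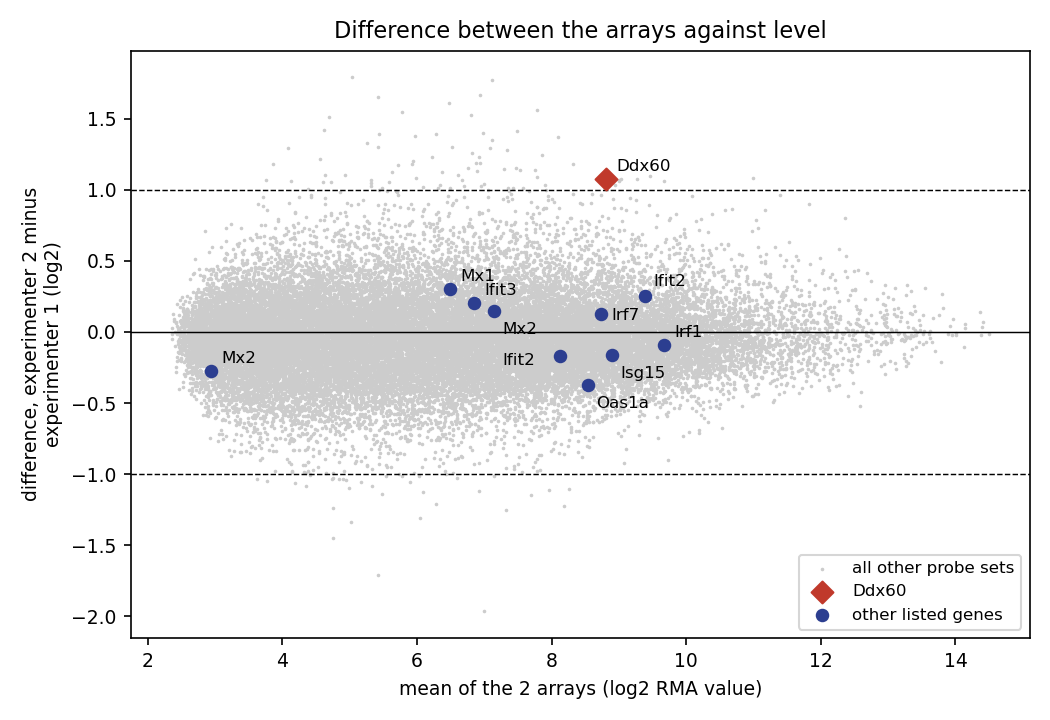
Difference between the arrays (experimenter 2 minus experimenter 1, log2) against the mean of both arrays (log2 RMA value), with all probe sets in grey and dashed lines at 2-fold. *Ddx60*, the red diamond at 1.08, lies above the upper line, and the blue points of the other genes lie between -0.37 and 0.30 inside the grey band.

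Probe sets of other named genes were ranked by how near their difference was to that of *Ddx60*. The search admitted no probe set without a symbol and none far from *Ddx60* in level, so it could return only named genes of like level. *Herc6*, *Tbk1* and *Slfn5* of the interferon pathway, described below, had means of 6.74, 9.57 and 11.18 and lay outside its window. Likeness was the gap between the differences over the 2 arrays, among 2937 probe sets of a single symbol with a mean within 0.5 of that of *Ddx60*, of which 6 were at least 2-fold higher for experimenter 2. The nearest were *Slc16a12* with a difference of 1.08, *Samd4b* with 1.08, *Ikzf5* with 1.07, *Larp4b* with 1.07 and *Rimoc1* with 1.03. All 5 genes had at least 1 other probe set, 7 in all, with means from 5.17 to 10.73. Of these, 3 were higher and 4 lower for experimenter 2, with differences from -0.56 for *Slc16a12* to 0.27 for *Rimoc1*, and 0 reached 1.5-fold higher. These 5 genes were picked for a wide difference, and 6 of the 7 other probe sets had means lower than that of *Ddx60*, so their values are a description and no check of the first.

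The rest of the interferon pathway was taken from 7 lists by role, in which 85 further genes were measured. The brightest probe set stood for each gene. The median difference of the 85 was -0.12, beside -0.052 over all probe sets. For experimenter 2, 25 were higher and 59 lower, which is 69.4% lower beside 58.7% of all probe sets. At 1.5-fold, 2 of the 85 were higher, *Herc6* and *Tbk1*, which is 2.35% beside the 2.05% of all probe sets. At the same fold, 0 of the 85 were lower, beside 2.3% of all probe sets. By mean level, 68 of the 85 lay in the brighter 15521 of the 31042 probe sets. Of those 15521, 353 were at least 1.5-fold higher and 252 at least 1.5-fold lower.

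The measured ligands and receptors were lower for experimenter 2 by their brightest probe sets, as were 58.7% of all probe sets. Of the interferon genes, 3 were measured, all with means under the median of all probe sets. *Ifnb1*, interferon beta, measured 3.48 for experimenter 2 and 3.99 for experimenter 1, and *Ifng*, interferon gamma, measured 2.73 for experimenter 2 and 3.08 for experimenter 1. The 6 receptor subunits had a median of -0.16, but 3 of them, *Ifnar1*, *Ifngr2* and *Ifnar2*, each had a dimmer probe set that was higher, by up to 0.091, 0.15 and 0.14. *Ifngr1*, the ligand-binding chain of the interferon gamma receptor and the brightest of them, differed by -0.11, and *Il10rb*, a chain shared with the type III interferon receptor, by -0.22. *Ifnar2*, a chain of the type I receptor, differed by -0.39 in its brighter probe set.

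Among kinases and transcription factors, 8 of 10 were lower, beside 58.7% of all probe sets, with a median of -0.089. *Jak1* and *Jak2*, kinases of the interferon receptors, differed by -0.22 and -0.39, though a second probe set of *Jak1* differed by 0.064. Sensors and adaptors had a median of 0.021, with 6 of 10 higher, beside 41.0% of all probe sets. *Tbk1*, the kinase that phosphorylates interferon regulatory factors downstream of viral RNA sensors, measured 9.87 for experimenter 2 and 9.27 for experimenter 1, a difference of 0.60 at percentile 98.1. *Myd88*, an adaptor of Toll-like receptors, differed by -0.26, and *Zbp1*, a sensor of Z-form nucleic acid, by -0.46.

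The other antiviral effectors had a median of -0.12, and 20 of 30 were lower, which is 66.7% beside 58.7% of all probe sets. *Herc6*, an E3 ligase that in mouse attaches ISG15 to proteins, came closest to *Ddx60*: it measured 7.18 for experimenter 2 and 6.30 for experimenter 1, a difference of 0.88 at percentile 99.6. *Slfn5*, a Schlafen family member, measured 11.46 for experimenter 2 and 10.91 for experimenter 1, a difference of 0.55. Both had 1 probe set. *Ifitm3*, a membrane protein that blocks virus entry and the brightest of this list, differed by -0.22.

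Genes of the ISG15 pathway and of inhibition had a median of -0.26, with 6 of 9 lower, which is 66.7% beside 58.7% of all probe sets. *Ptpn2*, a phosphatase that acts on JAK kinases, differed by -0.44 and by -0.37 in its 2 probe sets. *Socs1*, an inhibitor of JAK kinases, differed by 0.42 in one and by -0.47 in the other. Interferon gamma targets had a median of -0.070, with 12 of 18 lower, again 66.7%, and 5 higher. *Cxcl10*, a chemokine for T cells, differed by -0.33, while *Igtp*, an immunity-related GTPase, differed by 0.33 and -0.40 in its 2 probe sets. *B2m*, the light chain of MHC class I, measured 13.93 for experimenter 2 and 13.96 for experimenter 1 by its brighter probe set and differed by 0.33 by the other.

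**Figure D4:**
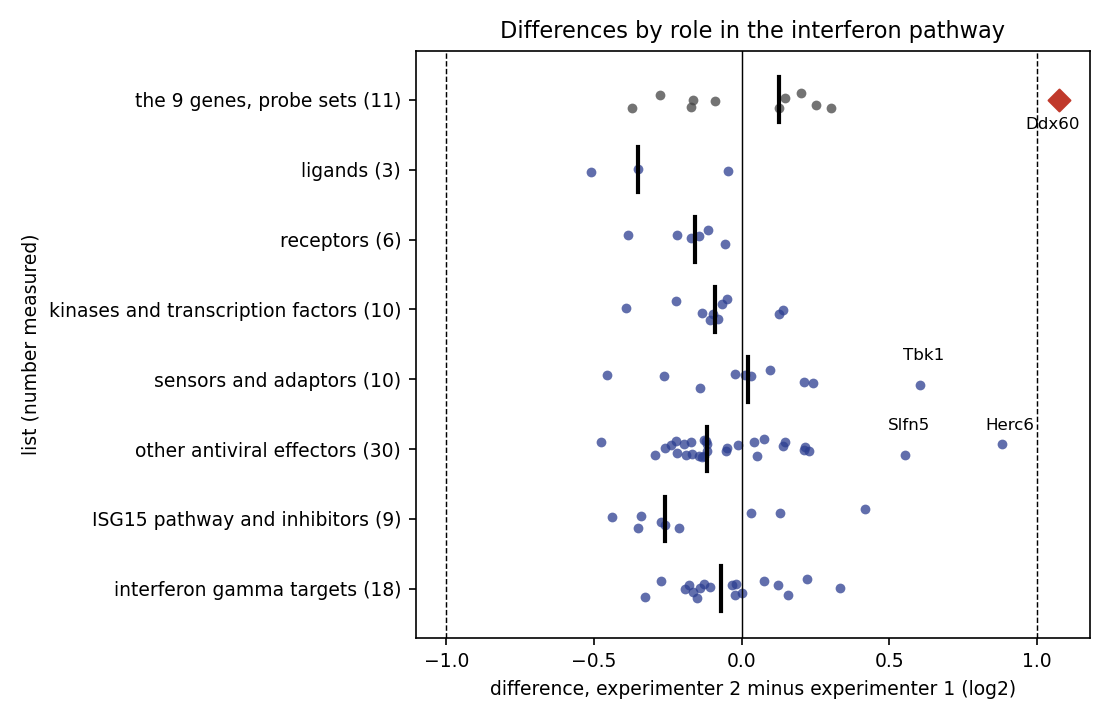
Differences (experimenter 2 minus experimenter 1, log2) of the 11 probe sets and of 7 lists of the interferon pathway, 1 point per gene in the lists and a black bar at each median. *Ifih1* stands in 2 lists. *Ddx60* is the only point past the dashed line at 2-fold, and *Herc6*, *Tbk1* and *Slfn5* follow at 0.88, 0.60 and 0.55.

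Across the arrays, log2 RMA values spanned 2.26 to 14.49 for experimenter 2, around a median of 6.28, and 2.31 to 14.51 for experimenter 1, around a median of 6.32. All 7 lung markers looked up, from surfactant to endothelial genes, lay above the upper quartile of both arrays. Of these, 5 of 7 were lower for experimenter 2, with a median of -0.065. For cells that make or answer interferon, 3 of 5 listed macrophage markers and 6 of 6 T and NK cell markers were measured. All of these were lower by their brightest probe sets, with medians of -0.15 and -0.21. Beside them, 58.7% of all probe sets were lower. Dimmer probe sets of *Gzmb*, *Cd3e* and *Cd8a* were higher, by up to 0.51, 0.16 and 0.065. Summed on the linear scale, the macrophage markers gave 25507 for experimenter 2 and 26132 for experimenter 1, and the T and NK cell markers gave 2285 for experimenter 2 and 2561 for experimenter 1. Each sum leans on its brightest gene. These were *Lyz2*, at a log2 value of 14.49 for experimenter 2 and 14.51 for experimenter 1, and *Prf1*, at 10.24 for experimenter 2 and 10.31 for experimenter 1. Of 5 listed plasmacytoid dendritic cell markers, 4 were measured, without *Siglech*, and all 4 were lower, with a median of -0.091. *Tcf4* and *Ly6c* lay at percentiles 97.8 to 98.4 of the arrays, and *Irf8* also stands among the transcription factors. How far these 4 report on that cell type was not tested. B cell markers were lower in 1 of the 2 measured, of 4 listed, and neutrophil markers in 3 of 4, beside the same 58.7%. Every log2 RMA value on both arrays was above 0, so no marker was at 0. The gap between the 3′ and 5′ control probe sets of *Actb*, which widens when labelled RNA is shorter, was 2.71 for experimenter 2 and 2.15 for experimenter 1, and that of *Hk1* was 1.36 for experimenter 2 and 1.13 for experimenter 1. That of *Gapdh* was 0.26 for experimenter 2 and 0.30 for experimenter 1. The part of these values in the *Ddx60* difference was not tested.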

How the data were processed

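Total RNA from rat lung was hybridised to 2 arrays, 1 per experimenter. The deposited values, on a log2 scale, were made by the authors with RMA (background correction, a common distribution across arrays, 1 value per probe set), per the submitters' processing notes. Neither its version nor which arrays it processed jointly is stated. A log base of 2 was inferred from the values. Of 31099 probe sets, 57 were controls. Of the other 31042, 20826 had 1 gene symbol, 436 several and 9780 none, and 20758 were matched to GRCr8 symbols by Entrez identifier. No probe set with several symbols held one of the 9 genes.

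Differences are experimenter 2 minus experimenter 1. A percentile is the share of values below, with ties at their middle. No test was possible. All member probe sets are named. From each pathway list the gene with the highest mean and the 2 with the largest absolute differences are named, and the 5 most like *Ddx60*. Members and lists were chosen with earlier results of these data known. Alternatives were median centring, loess (fraction 0.3), quantile normalization, other probe set choices, a level filter, updated symbols and ranking among the 1000 nearest in level. Computations, checked on simulated data, used Python 3.11.15, numpy 2.4.6, pandas 2.3.3, statsmodels 0.14.6 and matplotlib 3.10.9.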

Additional observations from a re-analysis of the deposited data

How the results depend on the processing

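No paired analysis was possible because there was 1 array per experimenter, and no array could be left out. Of 150 values recomputed under alternatives, 148 moved by less than the SD of all differences (0.28), by less than 10 percentile points, or, for counts, by no more than 1.5 times. Part of this was fixed in advance, since median centring shifts every difference by the same small amount and cannot change a percentile. The SD is that of single probe sets, so it is a wide limit for the median of a list, which could change sign within it. *Ddx60* differed by 1.12 to 1.13 after centring, loess or quantile normalization, at percentiles 99.83 to 99.84. The counts past 1.5-fold and 2-fold were the same under each of these and with the level filter. The other 2 values were those of the second probe sets of *Ifit2* (-0.17) and *Mx2* (-0.28), which also turned the sign; *Mx2* was -0.065 by the mean of its probe sets. No scaling turned the sign of a member. The median of the other members ranged from -0.13, with the second brightest probe set of each gene, an alternative chosen after seeing the data, to 0.14, with the brightest. It was -0.013 with the mean over probe sets. That of the 85 pathway genes ranged from -0.064 after centring to -0.12. Dim probe sets are limited by the lack of detection calls.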

Other observations

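Of 26 pathway genes with several probe sets, 16 had probe sets on both sides of 0, which is 61.5% beside 55.3% of all 4525 genes with several probe sets. The 4 whose probe sets lay at least 0.7 apart, chosen after their values were seen, were *Irf2*, *Trim14*, *Socs1* and *Igtp*. *Irf2*, a repressor of interferon-induced transcription, differed by 0.13 at a mean of 10.13, by 0.11 at 4.60, and by -0.93 at 4.13. *Trim14*, a regulator of antiviral signalling, differed by 0.15 at a mean of 5.99 and by -0.63 at 4.61. In both genes the wide difference came from the dimmest probe set. *Herc6*, *Slfn5* and *Tbk1*, the pathway genes nearest to *Ddx60* in difference, had 1 probe set each, as *Ddx60* did.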
